A study of Mus musculus with 11 samples.

Results

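Effector regulatory CD4 T cells (LG_eTreg) were compared with effector conventional CD4 T cells (LG_eTconv) from the lacrimal glands of NOD mice, a strain that develops spontaneous autoimmune inflammation of the tear and salivary glands. The comparison rests on 6 of the 11 arrays of the series, 3 for each subset, chosen by their titles. The other 5 arrays held PD1- ICOS- CD4 T cells of the gland (LG_naive, 3 arrays) and unfractionated spleen T cells of the CD4 lineage (Spl_CD4, 1 array) and the CD8 lineage (Spl_CD8, 1 array). All mice were male, 16 weeks old and of the NOD strain, with no genetic change or treatment listed in the labels. By the design text, both effector subsets were live, TCRbeta+ CD4+ cells with high PD1 and ICOS and low CD73 and CD200. It prints this same surface gate for both, so the step that separated them is not given in the sources used here. The labels do not say whether an array held the cells of 1 mouse or of a pool, nor whether equal replicate numbers mark the same mice. The p-values therefore measure the spread between these arrays, which may be technical.

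Regulatory T cells restrain other lymphocytes. They are set apart by the transcription factor Foxp3, carry the high-affinity interleukin 2 receptor, make little interleukin 2 themselves, and in inflamed tissue can acquire an effector state with Blimp-1 (encoded by Prdm1), interleukin 10 and granzymes. Effector conventional cells drive inflammation through cytokines and through ligands of the tumour necrosis factor (TNF) family that act on B cells, dendritic cells and other T cells. In glandular autoimmunity these ligands and interleukin 21 are studied for their part in helping B cells.

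Signals are log2 values per probe set, and a gene with several probe sets is represented by the brightest of them on average across the 9 gland arrays. A difference is the mean of LG_eTreg minus the mean of LG_eTconv on the log2 scale, so that 1 unit is 2-fold. A gene was called when its adjusted p in limma, with Benjamini-Hochberg adjustment over 17097 genes, was under 0.05. An array's background limit is its highest nonspecific control signal, which lay between 0.945 and 1.57 on the 6 arrays, and 57.8 to 65.6% of genes exceeded it. Between the arrays of a subset the correlation over genes was 0.983 to 0.989 in LG_eTreg and 0.987 to 0.991 in LG_eTconv, against 0.962 to 0.975 between subsets. Array LG_eTreg 3 had an 18S signal of 6.69, where the other 5 ranged from 4.34 to 5.35, and LG_eTconv 1 had a gap of 3.35 between the 3′ and 5′ actin probe sets, where the others ranged from 1.62 to 2.86. Counts are therefore also given without these 2 arrays, a choice made after the values were seen.

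Of the 17097 genes, 502 (2.94%) were called higher in LG_eTreg and 472 (2.76%) lower, together 974 (5.7%). The lower genes included more large differences: 71 of them differed by at least 8-fold, against 32 of the higher genes. At least 2-fold differences made up 655 of the calls (3.83% of all genes), 320 higher and 335 lower. The 2 subsets' arrays did not overlap for any of the 974 called genes, and this was so for 3668 genes (21.5%) in all. In 58 of the lower genes all 3 LG_eTreg arrays were at background, and in 35 of the higher genes all 3 LG_eTconv arrays were. Without LG_eTreg 3 and LG_eTconv 1, 629 genes were called (318 higher, 311 lower). Leaving out LG_eTconv 2 alone reduced the higher calls to 330.

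**Figure D1:**
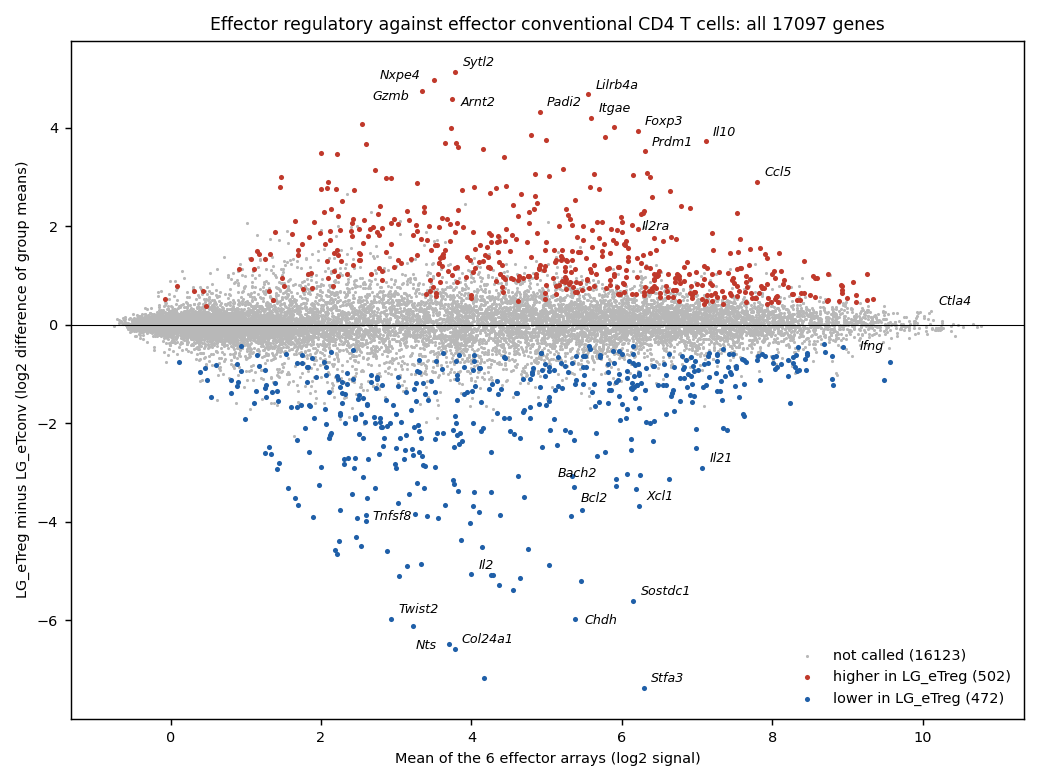
Difference between subsets (y axis, log2, LG_eTreg minus LG_eTconv) against the mean of the 6 effector arrays (x axis, log2 signal) for all 17097 genes; red points are the 502 genes called higher in LG_eTreg, blue the 472 called lower and grey those not called. The falls reach below -7 log2 units and the rises just above 5.

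The 4 genes used to mark the subsets separated the arrays of 1 from those of the other. Foxp3, the lineage-defining factor of regulatory T cells, read 8.21, 8.13 and 8.21 on the LG_eTreg arrays and 4.26, 4.85 and 3.61 on the LG_eTconv arrays. The LG_eTreg values lay within 0.1 of each other and far above the conventional ones (difference 3.94, SE 0.49, 15.4-fold, adjusted p 0.00207). The conventional arrays overlapped with the naive arrays, which ranged from 2.86 to 4.95, and all of these were above background. Gzmb, the killing protease granzyme B, read 5.26, 5.94 and 5.93 against 0.79, 0.89 and 1.21, where 1 of the 3 conventional arrays exceeded its background limit (difference 4.74, SE 0.20, adjusted p 6.68e-06). Expression of Il2, which drives T cell growth, went the other way, with 1.59, 1.87 and 0.93 in LG_eTreg and 6.52, 6.53 and 6.53 in LG_eTconv. It was above background on 2 of the 3 LG_eTreg arrays (difference -5.07, SE 0.40, adjusted p 0.000156). Il21, a cytokine that helps B cells, read 5.73, 5.59 and 5.54 in LG_eTreg and 8.34, 8.66 and 8.56 in LG_eTconv, 7.47-fold lower in the regulatory cells (adjusted p 9.96e-06). Unlike Il2, it was well above background in both subsets, while LG_naive stayed at or below 1.27.

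**Figure D2:**
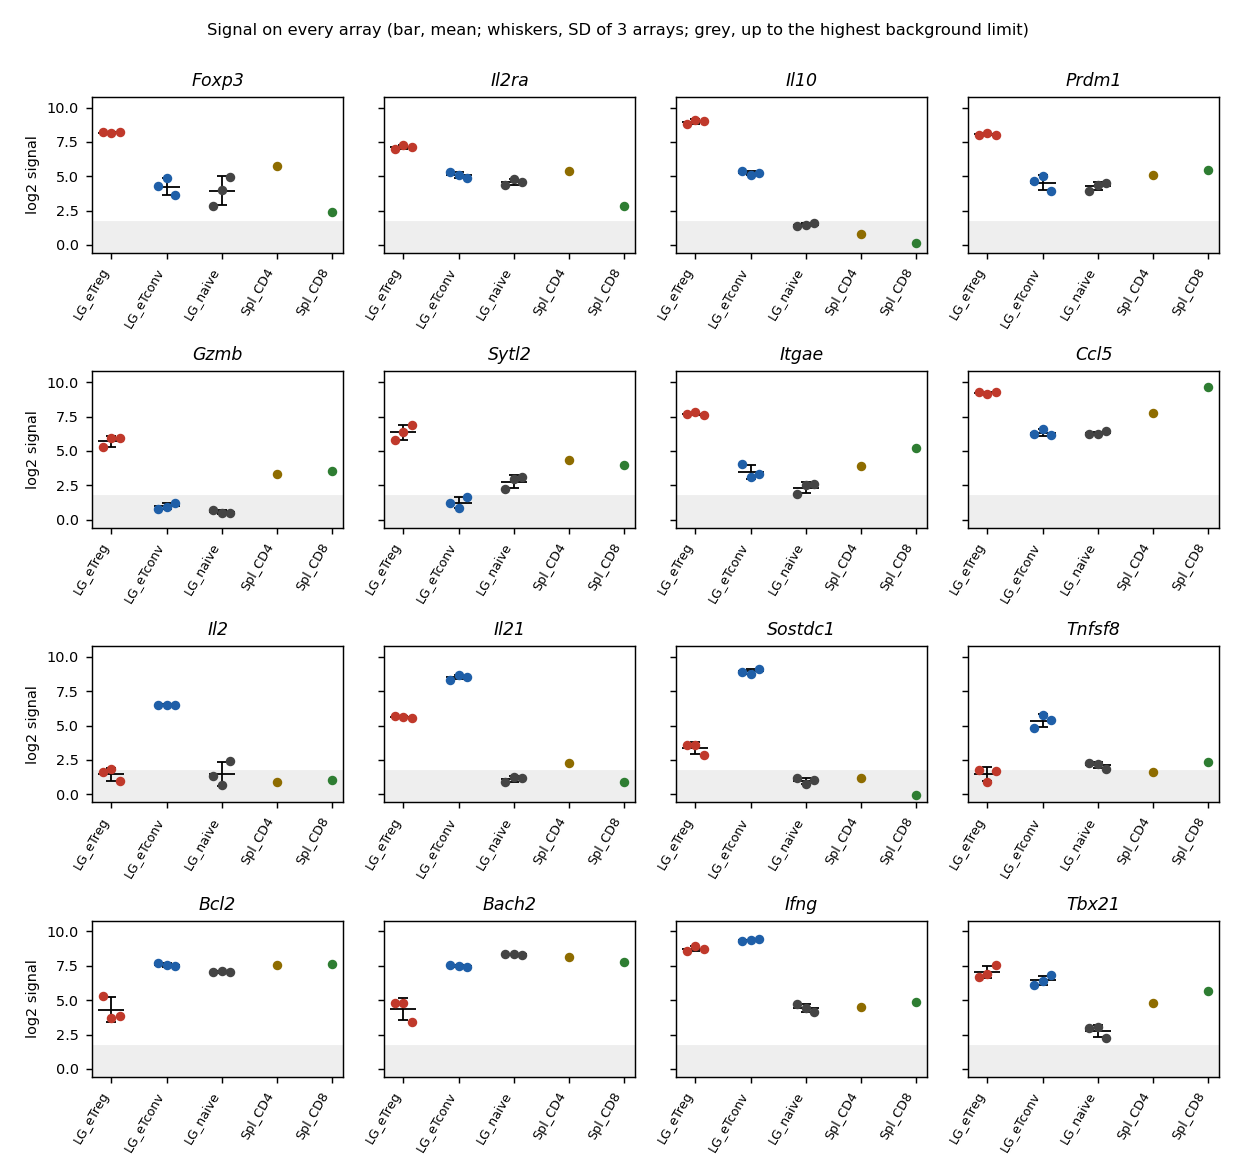
Signal of 16 genes (y axis, log2) on every array of the 5 groups (x axis); points are arrays, bars and whiskers the mean and SD of the 3 gland arrays of a subset, and the grey band reaches the highest background limit, 1.7. Foxp3 to Ccl5 lie higher in LG_eTreg and Il2 to Bach2 lower. The Ifng arrays of the 2 subsets do not overlap, as for 21.5% of all genes, although the gene missed the threshold, and those of Tbx21 overlap.

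Of 18 measured genes of regulatory T cell identity, 8 rose and 0 fell, with a median difference of 1.03 against 0.01 over all genes. The same count was obtained without LG_eTreg 3 and LG_eTconv 1. Of the 18 differences, 15 were above 0, and the lowest was -1.65, without a call. At other settings up to 1 member was called lower. Itgae, the integrin chain CD103 that binds E-cadherin on epithelium, read 7.66, 7.81 and 7.63 in LG_eTreg and 4.07, 3.07 and 3.32 in LG_eTconv (difference 4.21, SE 0.28, adjusted p 5.53e-05). All regulatory arrays exceeded all conventional ones by more than 3 log2 units. Klrg1, an inhibitory receptor of terminally differentiated cells, was at background on all conventional and naive arrays and at least 4.62-fold higher in LG_eTreg (3.65, 3.65 and 3.34). Ikzf4, the factor Eos that acts with Foxp3 in gene silencing, rose by 2.53 (adjusted p 1.33e-05). Il2ra, the alpha chain of the interleukin 2 receptor, read 7.01, 7.28 and 7.17 against 5.34, 5.12 and 4.91 (difference 2.03, SE 0.16, adjusted p 0.000135). Swap70 rose by 2.15, Ecm1 by 1.99 and Tnfrsf18, which encodes GITR, by 1.04.

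Several genes often used to mark regulatory cells missed the threshold. Ctla4, which competes with CD28 for its ligands, read 10.19, 10.26 and 10.32 in LG_eTreg and 9.84, 10.01 and 10.06 in LG_eTconv (difference 0.29, adjusted p 0.267). Its arrays did not overlap between subsets, which held for 21.5% of all genes. Both subsets lay above LG_naive, whose arrays ranged from 8.12 to 8.42. Ikzf2, the factor Helios, differed by 1.02 with adjusted p 0.096: its conventional arrays read 7.58, 8.61 and 8.59 and all lay below the regulatory ones at 9.35, 9.37 and 9.11. Without LG_eTconv 1 the Ikzf2 difference was 0.68. Ccr8, a chemokine receptor of tissue regulatory cells, overlapped between the subsets (difference 0.45, adjusted p 0.348) and was at background on all naive arrays.

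Among 15 measured suppressor molecules, 5 rose and 0 fell (median 0.29), and 4 rose without the 2 arrays named above. Of the 15 differences 11 were above 0, and the lowest was -1.05, without a call. At other settings up to 1 of these molecules was called lower. Il10, the anti-inflammatory cytokine, read 8.80, 9.11 and 9.03 in LG_eTreg and 5.37, 5.12 and 5.26 in LG_eTconv. The subsets were 13.3-fold apart (difference 3.73, SE 0.12, adjusted p 2.13e-06), and the conventional arrays themselves lay above the naive ones at 1.39, 1.46 and 1.61. Prdm1, which encodes the repressor Blimp-1, read 8.04, 8.13 and 8.03 against 4.69, 5.03 and 3.92 (difference 3.52, adjusted p 0.000129). LG_naive, at 3.95 to 4.54, was close to the conventional cells for Prdm1. Fgl2, a secreted suppressor protein, read 6.35, 7.18 and 6.66 against 2.52, 2.65 and 3.43 (difference 3.86, adjusted p 8.9e-05). Entpd1, the ectonucleotidase CD39, read 5.17, 5.53 and 5.05 against 4.10, 4.29 and 4.36 (adjusted p 0.0142), and this call was lost without LG_eTconv 1 (adjusted p 0.0591) and without LG_eTconv 2 (adjusted p 0.0505). Tgfb1, Lag3, Ebi3 and Maf differed by -0.16, 0.28, -0.34 and 0.37, with adjusted p from 0.589 to 0.831.

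Of 13 measured members of the interleukin 2 pathway, 3 rose and 2 fell (median 0.01). Il2 and Bcl2 fell, while Il2ra, Cish and Pim1 rose. The receptor's beta chain, Il2rb, differed by 0.56 without a call (adjusted p 0.0795). Cish, a feedback inhibitor induced through STAT5, read 7.04, 7.36 and 7.35 against 6.27, 6.29 and 6.12 (difference 1.03, adjusted p 0.0221). Pim1 was at background on all 6 arrays, so its difference of 0.38 carries no measured level. The calls of Cish and Pim1 were lost without any of LG_eTconv 1, LG_eTconv 2, LG_eTconv 3, LG_eTreg 2 or LG_eTreg 3, which left Il2ra as the 1 call of the list that rose. The adjusted p then ran from 0.0668 to 0.082 for Cish and from 0.0737 to 0.11 for Pim1, and Pim1 also lost its call without LG_eTreg 1 (0.0712), LG_naive 2 (0.0606) or LG_naive 3 (0.0599). Stat5a and Stat5b differed by 0.01 and 0.21 (adjusted p 0.981 and 0.509).

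Bcl2, which protects lymphocytes from apoptosis, was lower in LG_eTreg than in any other group: 5.34, 3.67 and 3.88, against 7.70, 7.53 and 7.45 in LG_eTconv. The difference was -3.27 (SE 0.38, adjusted p 0.00134), and the naive arrays at 7.02, 7.11 and 7.05 lay beside the conventional ones. Bcl2l11 (BIM) and Bid, which promote death, rose by 1.16 (adjusted p 0.0044) and 1.15 (adjusted p 0.015). Of 14 measured survival and death genes these 2 rose and Bcl2 fell, with a median of 0.21. Since 12 of the 14 differences were above 0, a rise was not particular to genes that promote death. The Bcl2l11 call was lost without LG_eTreg 3 and LG_eTconv 1 together (adjusted p 0.0564), and the Bid call without LG_eTconv 2 (0.0642), LG_eTreg 2 (0.0517) or LG_eTconv 3 (0.0611). With the mean of the probe sets both calls were lost, Bcl2l11 at 0.55 (adjusted p 0.32) and Bid at 0.54 (0.0723).

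Of 18 measured helper cytokines 7 fell and Il10 rose, with a median of -0.27. The 7 were Il2, Il21, Lif, Lta, Csf2, Csf1 and Tnf, and 4 of the list fell without LG_eTreg 3 and LG_eTconv 1. Lif, a cytokine of the interleukin 6 family, read 2.31, 2.42 and 2.33 in LG_eTreg and 4.65, 4.31 and 5.06 in LG_eTconv (difference -2.32, adjusted p 0.000681). Its 3 probe sets did not move alike: their differences ran from -2.32 to 0.12. Ifng, the defining T helper 1 cytokine, was strong in both subsets, at 8.57, 8.97 and 8.71 in LG_eTreg and 9.34, 9.35 and 9.42 in LG_eTconv. Every regulatory array was lower, where 21.5% of all genes had no overlap in either direction, but the difference of -0.62 missed the threshold (adjusted p 0.0627). It passed without LG_naive 1 (0.0416) or LG_naive 3 (0.0469), after quantile normalization (0.0358) and with a trended robust variance prior (0.0396). The 8 cytokines Il3, Il4, Il5, Il6, Il9, Il13, Il17a and Il1a were at background on all 6 arrays.

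The TNF superfamily ligands had the largest share of lower genes among the 35 gene lists examined. Of 14 measured ligands 10 fell and 0 rose, with a median of -1.42, and 8 fell without LG_eTreg 3 and LG_eTconv 1. Relative to LG_naive the list's median was 0.12 in LG_eTreg and 2.09 in LG_eTconv. Tnfsf8, the CD30 ligand, read 1.78, 0.89 and 1.71 in LG_eTreg and 4.84, 5.79 and 5.41 in LG_eTconv, with 2 of the 3 regulatory arrays above background (difference -3.89, adjusted p 0.000132). Tnfsf4, which encodes OX40 ligand, read 1.10, 1.14 and 0.94 against 4.03, 4.80 and 4.29 (difference -3.31, adjusted p 3.4e-05). Only 1 of its 3 regulatory arrays exceeded background.

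Among the other ligands, Cd40lg, the CD40 ligand that licenses B cells and dendritic cells, fell by 2.12 on the log2 scale (adjusted p 0.00407). Lta, or lymphotoxin alpha, which shapes lymphoid tissue, read 3.69, 3.78 and 4.46 against 5.89, 6.14 and 6.31 (difference -2.13, adjusted p 0.00207). Tnfsf11, or RANK ligand, was measured far above background in both subsets and fell by 1.82 (adjusted p 0.0044). Cd70, the ligand of CD27, fell by 1.02 (adjusted p 0.00997), and Tnf by 0.78 (adjusted p 0.00915; 0.0721 without LG_eTreg 3 and LG_eTconv 1). The B cell survival factor Tnfsf13b (BAFF) fell by 2.14 and Tnfsf14 (LIGHT) by 3.22. The Tnfsf13b call was lost without LG_eTconv 1 (adjusted p 0.0597), LG_eTreg 1 (0.0504), LG_eTreg 2 (0.0586) or LG_eTconv 3 (0.0571), and the Tnfsf14 call without LG_eTreg 1 (0.0696), LG_eTconv 2 (0.0839), LG_eTreg 2 (0.08) or LG_eTconv 3 (0.0817). On Tnfsf14 the array LG_eTreg 3, at 3.59, stood apart from the other regulatory arrays at 1.51 and 1.37.

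The receptors of the family did not share this pattern. Of 16 measured receptors 3 rose and 1 fell, with a median of 0.23. Cd27, the receptor of the CD70 ligand, read 8.53, 8.70 and 8.76 in LG_eTreg and 7.51, 7.62 and 7.57 in LG_eTconv (difference 1.10, adjusted p 0.000578). Tnfrsf1b, the type 2 TNF receptor, rose by 0.79 (adjusted p 0.00635), although its other probe set differed by 0.12. Tnfrsf25, or death receptor 3, was the gene that fell: 4.66, 3.82 and 4.09 against 6.77, 6.27 and 6.56 (difference -2.34, adjusted p 0.000364).

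Of 20 measured genes of follicular helper T cells, which enter B cell follicles and support antibody responses, 10 fell and 0 rose (median -0.99). Without LG_eTreg 3 and LG_eTconv 1, 8 fell. Of the 10, Il21, Cd40lg and Tnfsf8, also belong to the cytokine or TNF ligand list. Sostdc1, which is secreted and blocks BMP and Wnt ligands, read 3.59, 3.60 and 2.86 in LG_eTreg and 8.93, 8.78 and 9.15 in LG_eTconv. This was a 48.5-fold difference (adjusted p 5.53e-06), and the gene was at background on all naive arrays. Slamf6, an adhesion receptor of the SLAM family used between T and B cells, read 6.32, 6.46 and 6.22 against 8.57, 8.41 and 8.40 (difference -2.13, adjusted p 1.2e-05). Btla, an inhibitory receptor, fell by 1.52 (adjusted p 0.000208), Pou2af1 by 1.49 (adjusted p 0.000138) and the factor Ascl2 by 1.78 (adjusted p 0.0119).

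The 2 genes most often used to define follicular helper cells separated the subsets less. Bcl6, their master regulator, read 7.98, 8.27 and 8.09 in LG_eTreg and 8.52 to 8.60 in LG_eTconv. It had no overlap, as for 21.5% of all genes, and did not pass the threshold (difference -0.46, adjusted p 0.0652). It passed after quantile normalization (0.0281) and with the trended robust prior (0.032). LG_naive, at 7.87 to 8.17, was near the regulatory cells. Cxcr5, the receptor that guides cells to the follicle, read 3.17, 3.55 and 4.29 against 4.74, 4.69 and 5.16 (difference -1.20, adjusted p 0.0392). Its call was lost when any of the 9 gland arrays other than LG_eTreg 3 was left out, with adjusted p from 0.0566 to 0.129. Il6ra fell by 1.22 (adjusted p 0.0326) and likewise lost its call without any of the 9 arrays but LG_eTreg 1 (adjusted p 0.0521 to 0.114), and with the mean of its probe sets (-0.65, 0.102). Maf, Tox2 and Lef1 differed by 0.37, -0.06 and 0.24.

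**Figure D3:**
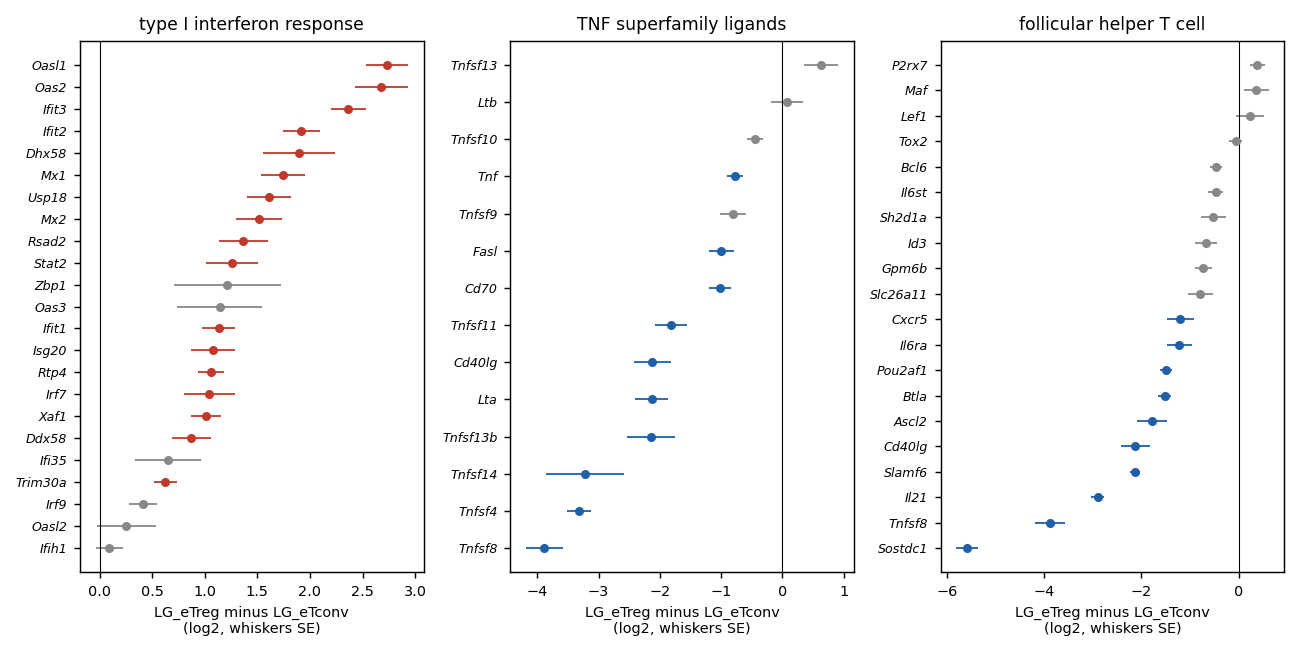
Difference between subsets (x axis, log2, LG_eTreg minus LG_eTconv; whiskers, SE) for each measured gene (y axis) of 3 lists; red genes were called higher, blue lower, grey not called. All 23 type I interferon response genes lie above 0, while 10 of 14 TNF superfamily ligands and 10 of 20 follicular helper genes were called lower.

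Genes of the killing machinery were called in both directions, where 2.94% of all genes were called higher and 2.76% lower. Of 19 measured genes of cytotoxic granules and killing 3 rose and 1 fell, with a median of 0.31. Besides Gzmb, Sytl2, a docking protein of secretory granules, read 5.80, 6.39 and 6.89 in LG_eTreg and 1.20, 0.82 and 1.62 in LG_eTconv. At 35.4-fold this was the largest rise of all named genes (difference 5.15, SE 0.34, adjusted p 5.63e-05), and the naive arrays lay between at 2.24, 2.94 and 3.12. Gzma read 2.60, 3.05 and 5.07 against 0.53, 1.57 and 0.34, so that LG_eTreg 3 carried much of its difference of 2.76 (adjusted p 0.0389). The Gzma call was lost without LG_eTconv 1 (adjusted p 0.131), LG_eTconv 2 (0.0528), LG_eTconv 3 (0.127), LG_eTreg 2 (0.0715) or any of the 3 naive arrays (0.058 to 0.0616). Fasl fell by 0.997 on the log2 scale (adjusted p 0.0233) and lost its call without LG_eTconv 1 (0.0824), LG_eTconv 2 (0.0644), LG_eTreg 2 (0.0547) or LG_eTreg 3 (0.0727), and with the mean of its probe sets (-0.66, 0.213). Perforin (Prf1) and Nkg7 differed by 0.30 and 0.47 (adjusted p 0.573 and 0.408). Rab27a, a granule transport protein that partners with Sytl2, differed by 2.38 without a call (adjusted p 0.128).

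T helper 1 genes were divided. Of 17 measured 3 rose and 4 fell (median 0.30), and without LG_eTreg 3 and LG_eTconv 1, 2 rose and 2 fell. Tbx21, the T helper 1 master regulator T-bet, overlapped between subsets at 6.70, 6.94 and 7.57 against 6.13, 6.39 and 6.81 (difference 0.62, adjusted p 0.374; difference 0.37 without LG_eTreg 3). Both effector subsets exceeded LG_naive, which lay between 2.23 and 3.07. Cxcr6, a receptor of tissue-resident and T helper 1 cells, rose by 2.19 (adjusted p 0.0045), and Runx3 by 1.17 (adjusted p 0.00157). Stat4, which carries the interleukin 12 signal, read 7.06, 6.96 and 6.85 against 7.88, 7.90 and 7.98 and fell by 0.96 (adjusted p 0.00114). Of 12 measured T helper 2 and 17 genes 1 rose (Ccr4, 1.84) and 1 fell (Ccr6, -1.35), with a median of 0.19. Gata3 read 5.78, 5.64 and 4.83 against 6.45, 6.76 and 6.44 and differed by -1.13 without a call (adjusted p 0.138; 0.0418 without LG_naive 1).

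Chemokines changed in both directions. Of 13 measured 3 rose and 2 fell, with a median of 0.20. Ccl5, which draws effector T cells and monocytes, read 9.28, 9.17 and 9.30 in LG_eTreg and 6.25, 6.62 and 6.15 in LG_eTconv, 7.51-fold apart (adjusted p 9.99e-06). The naive arrays, at 6.24 to 6.43, coincided with the conventional ones. Xcl1, which attracts cross-presenting dendritic cells, showed the reverse: 3.99, 4.57 and 4.61 against 8.08, 8.22 and 7.89 (difference -3.67, adjusted p 0.000396). Ccl1, a ligand of CCR8, read 2.59, 2.69 and 3.98 against 6.17, 6.08 and 6.22 (difference -3.06, adjusted p 0.00317).

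Receptors for migration and adhesion also moved both ways, against 2.94% of all genes called higher and 2.76% lower. Of 18 measured chemokine and egress receptors 4 rose and 4 fell, and the median lay at -0.00019. Ccr2, a receptor for inflammatory chemokines, read 4.71, 4.43 and 4.61 in LG_eTreg while all LG_eTconv arrays were at background (-0.11 to 0.999), a difference of at least 9.47-fold. The naive arrays were above background for Ccr2, at 3.44 to 3.78. S1pr4 rose by 1.19 (adjusted p 0.0011), while S1pr1, which directs exit from tissue, fell by 0.90 (adjusted p 0.0189). The S1pr1 call was lost without LG_eTconv 1 (adjusted p 0.0614) or LG_eTconv 3 (0.0744), and the list's falls were reduced to 1 without LG_eTconv 3 and to 2 without LG_eTconv 1 or LG_eTconv 2. Of 18 measured integrins and adhesion genes 5 rose, Itgae foremost, and 1 fell (median 0.19). The call of the gene that fell, Itgb1, was lost without LG_naive 1, LG_eTreg 1, LG_eTreg 2, LG_eTconv 2 or LG_eTconv 3 (adjusted p 0.0527 to 0.118) and with the mean of its probe sets (-0.68, 0.101). Selplg, the selectin ligand PSGL-1, read 8.51, 8.47 and 8.36 against 6.95, 6.44 and 6.71 (difference 1.74, adjusted p 0.000138). Icam1 rose by 1.54 (adjusted p 8.9e-05).

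Inhibitory receptors rose in 5 of 14 measured cases and fell in 2 (median 0.27). Havcr2, which encodes TIM-3, read 3.98, 4.76 and 4.13 in LG_eTreg and 0.59, 1.47 and 1.37 in LG_eTconv (difference 3.15, adjusted p 0.00145). Lilrb4a read 7.69, 8.22 and 7.77 against 2.44, 3.24 and 3.95 (difference 4.68, adjusted p 0.000645), on a probe set that may also bind related transcripts. The 5 rises became 3 without LG_eTconv 1, LG_eTreg 1, LG_eTconv 3 or LG_eTreg 3. The falls were Btla, above, and the PD-1 ligand Pdcd1lg2 by 1.19 (adjusted p 0.049), whose call was lost without any gland array but LG_naive 2 and LG_eTreg 3 (adjusted p 0.0552 to 0.158).

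The genes of the surface gate gave a mixed picture. Pdcd1, which encodes PD-1, overlapped at 6.80, 7.41 and 8.16 in LG_eTreg and 6.77, 7.19 and 7.72 in LG_eTconv (difference 0.23, adjusted p 0.857), and both subsets lay far above LG_naive (1.63 to 2.15). Without LG_eTreg 3 and LG_eTconv 1 the Pdcd1 difference was -0.35. Icos overlapped too (difference 0.16, adjusted p 0.605), although the mean of its probe sets was called (0.38, 0.0465). Cd200 read 8.12, 8.32 and 8.29 against 9.24, 9.30 and 9.49 and was lower in LG_eTreg (difference -1.10, adjusted p 0.00222). Nt5e, which encodes CD73, read 7.63, 8.02 and 7.95 against 8.68, 8.84 and 8.87 (difference -0.93, adjusted p 0.0462). Both of these were higher in either effector subset than in LG_naive, where Cd200 did not exceed 5.88 and Nt5e did not exceed 4.71. The RNA levels thus stand against the printed gate, which names both proteins as low in the effector subsets. Surface protein was not measured here, and the reason was not tested. The Nt5e call was lost when any gland array other than LG_naive 1 was left out (adjusted p 0.0526 to 0.142). Cd4 was lower in LG_eTreg by 0.55 (adjusted p 0.00845), a call lost with the mean of its probe sets (-0.58, 0.162).

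Transcription factors of lineage choice moved in both directions, 7 of 37 measured higher and 5 lower (median 0.30). Arnt2, a partner of bHLH-PAS factors, read 6.52, 6.13 and 5.43 in LG_eTreg and 2.17, 1.26 and 0.89 in LG_eTconv (difference 4.59, adjusted p 0.000138). Ikzf3, or Aiolos, rose by 2.39 (adjusted p 0.00032). Bach2, a repressor that restrains effector differentiation, read 4.82, 4.79 and 3.44 against 7.57, 7.47 and 7.41 (difference -3.13, adjusted p 0.00073). The naive arrays, at 8.32 to 8.34, were above both subsets. Twist2 was at background on all LG_eTreg and LG_naive arrays and read 6.32, 5.40 and 6.01 in LG_eTconv, at least 25.8-fold higher there. Vdr, the vitamin D receptor, read 2.05, 2.88 and 2.06 against 5.76, 5.77 and 5.66 (difference -3.40, adjusted p 8.9e-05). The list's 5 falls became 3 without LG_eTconv 1, LG_eTconv 2, LG_eTreg 1, LG_eTreg 2 or LG_eTreg 3, when the calls of Zeb2 and Bhlhe40 were lost (adjusted p up to 0.115 and 0.105 with 1 array left out). With values raised to the background limit Zeb2 differed by -0.33 (adjusted p 0.728).

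Of 13 measured genes of naive and recirculating T cells 6 fell and 1 rose (median -0.72), and both subsets lay below LG_naive, by a median of 3.44 log2 units in LG_eTreg and 2.75 in LG_eTconv. Tdrp read 1.52, 2.56 and 2.44 in LG_eTreg, 4.82, 5.67 and 5.48 in LG_eTconv and 7.99, 8.03 and 8.20 in LG_naive. Nsg2 read 5.03, 4.82 and 5.32 in LG_eTreg, 8.06, 8.25 and 8.25 in LG_eTconv and 8.45 to 8.49 in LG_naive (difference between effectors -3.13, adjusted p 6.68e-06). The exception was Satb1, a chromatin organiser, which read 7.15, 7.35 and 7.15 in LG_eTreg against 5.71, 5.80 and 5.60 (difference 1.51, adjusted p 7.38e-05). The 6 falls became 3 without LG_eTconv 3 and also without LG_eTreg 3 and LG_eTconv 1 together.

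Signalling through TGF-beta, which induces Foxp3 and CD103, involved 18 measured genes, of which 4 rose and 2 fell (median 0.05). Smad3, a signal transducer of the pathway, read 8.63, 8.48 and 8.72 in LG_eTreg and 7.34, 6.96 and 6.86 in LG_eTconv (difference 1.56, adjusted p 0.000309). The mean of its 3 probe sets differed by 0.49. Tgfbr1 rose by 1.15 (adjusted p 0.00259; 0.76 and 0.105 when its probe sets were averaged) and the inhibitor Smad7 by 0.87 (adjusted p 0.00265). Tgfbr3, or betaglycan, a co-receptor, read 4.41, 4.92 and 4.81 against 7.84, 7.75 and 7.71 and fell by 3.06 (adjusted p 1.28e-05). Its other probe set differed by -0.50.

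Genes of recent antigen receptor stimulation were called in small numbers, to be read beside the 2.94% of all genes called higher and 2.76% lower. Of 27 measured response genes 2 rose and 1 fell (median -0.12), and of 17 genes of the receptor complex and its proximal signalling 1 fell, Themis, by 1.69 (adjusted p 8.54e-05). Irf8 rose by 1.71 (adjusted p 0.000101). It was the 1 response gene to rise without LG_eTconv 1, LG_eTreg 1, LG_eTconv 2, LG_eTreg 2 or LG_eTconv 3, and of the falls 0 were left without LG_eTreg 1, LG_eTconv 2, LG_eTreg 2 or LG_eTconv 3 while 2 were called without LG_eTconv 1 or LG_naive 3. Nr4a1, Myc and Irf4 differed by 0.72, 0.18 and -0.21 with no call. Of 31 measured proliferation genes 1 rose, Tk1 by 1.10 (adjusted p 0.0396, lost without any array but LG_naive 1 and LG_eTreg 2), and the median was 0.22. Mki67 and Top2a differed by 0.88 and 0.21 (adjusted p 0.598 and 0.837). Of 16 anergy and ubiquitin ligase genes 2 rose and 3 fell, the largest Rnf128, which encodes GRAIL, at 5.83, 6.19 and 5.78 against 7.93, 7.92 and 8.26 (adjusted p 8.33e-05), and 1 of the 3 falls was left without LG_eTconv 3.

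Without LG_eTreg 3 and LG_eTconv 1, the counts of further lists were 2 higher and 0 lower for killing genes, 2 and 2 for chemokines, 3 and 1 for TNF receptors, 4 and 2 for chemokine receptors, 5 and 1 for adhesion, 3 and 3 for TGF-beta signalling, 7 and 3 for lineage factors, 1 and 1 for antigen receptor response genes, 2 and 1 for anergy genes and 3 and 1 for inhibitory receptors. They were 0 and 1 for purine handling, 1 and 0 for the interleukin 6 and STAT3 list, 0 and 1 for amino acid use, 1 and 0 for cholesterol synthesis, 0 and 0 for proliferation, 1 and 1 for survival, 1 and 1 for glycolysis, 2 and 0 for the interferon gamma list, 1 and 2 for the interleukin 2 pathway and 1 and 1 for T helper 2 and 17 genes. Among other cells' markers they were 0 and 2 for B cells, 0 and 0 for dendritic cells, 1 and 0 for monocytes, 1 and 0 for epithelium, 0 and 1 for CD8 and natural killer cells and 0 and 1 for fibroblasts and endothelium.

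The counts of the metabolic lists stand beside 2.94% of all genes called higher and 2.76% called lower. Of 19 measured glycolysis and hypoxia genes 1 rose, the glucose transporter Slc2a3 by 1.88 (adjusted p 0.00846, on a probe set that may also bind related transcripts), and 1 fell, the hexokinase Hk2 by 1.89 (adjusted p 0.0019). Of 18 cholesterol and fatty acid synthesis genes 2 rose, Idi1 by 1.31 and Sqle by 1.03, and the median was 0.48. The Idi1 call was lost without LG_eTreg 3 and LG_eTconv 1 (adjusted p 0.0667). The Sqle call depended on single arrays, with adjusted p up to 0.116 (without LG_eTconv 1). It was 0.219 without LG_eTreg 3 and LG_eTconv 1 together. Without LG_eTconv 1, LG_eTconv 3, LG_eTreg 1 or any naive array 1 of these calls was left. Of 13 amino acid transport and use genes 3 fell (median -0.03), and 1 fell without LG_eTconv 1, LG_eTconv 2, LG_eTconv 3, LG_eTreg 1, LG_naive 2 or LG_naive 3. Bcat1, which starts the breakdown of branched-chain amino acids, read 6.15, 5.90 and 5.43 against 7.61, 7.49 and 7.59 (difference -1.74, adjusted p 0.00572; 0.0622 without LG_eTreg 3 and LG_eTconv 1) and was above background on 1 naive array. Of 11 genes of purine and adenosine handling 3 rose and 2 fell (median 0.39), and the rises became 1 without LG_eTconv 1 or LG_eTconv 2. Ada, which breaks down adenosine, rose by 1.95 (adjusted p 0.0102; 0.0724 without LG_eTreg 3 and LG_eTconv 1). The falls became 1 without LG_eTconv 1, LG_eTconv 2, LG_eTreg 2 or LG_eTreg 3. In the interleukin 6 family and STAT3 list, with 3 rises and 2 falls among 17 measured genes, Il10ra rose by 1.82 (adjusted p 0.00631; 0.0648 without LG_eTreg 3 and LG_eTconv 1). Its falls, Il6ra and Jak2, both lost their call without LG_eTconv 1, LG_eTconv 2, LG_eTconv 3, LG_naive 2, LG_naive 3, LG_eTreg 2 or LG_eTreg 3, and its rises became 1 without LG_eTreg 1, LG_eTreg 2, LG_eTreg 3 or LG_eTconv 3.

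**Figure D4:**
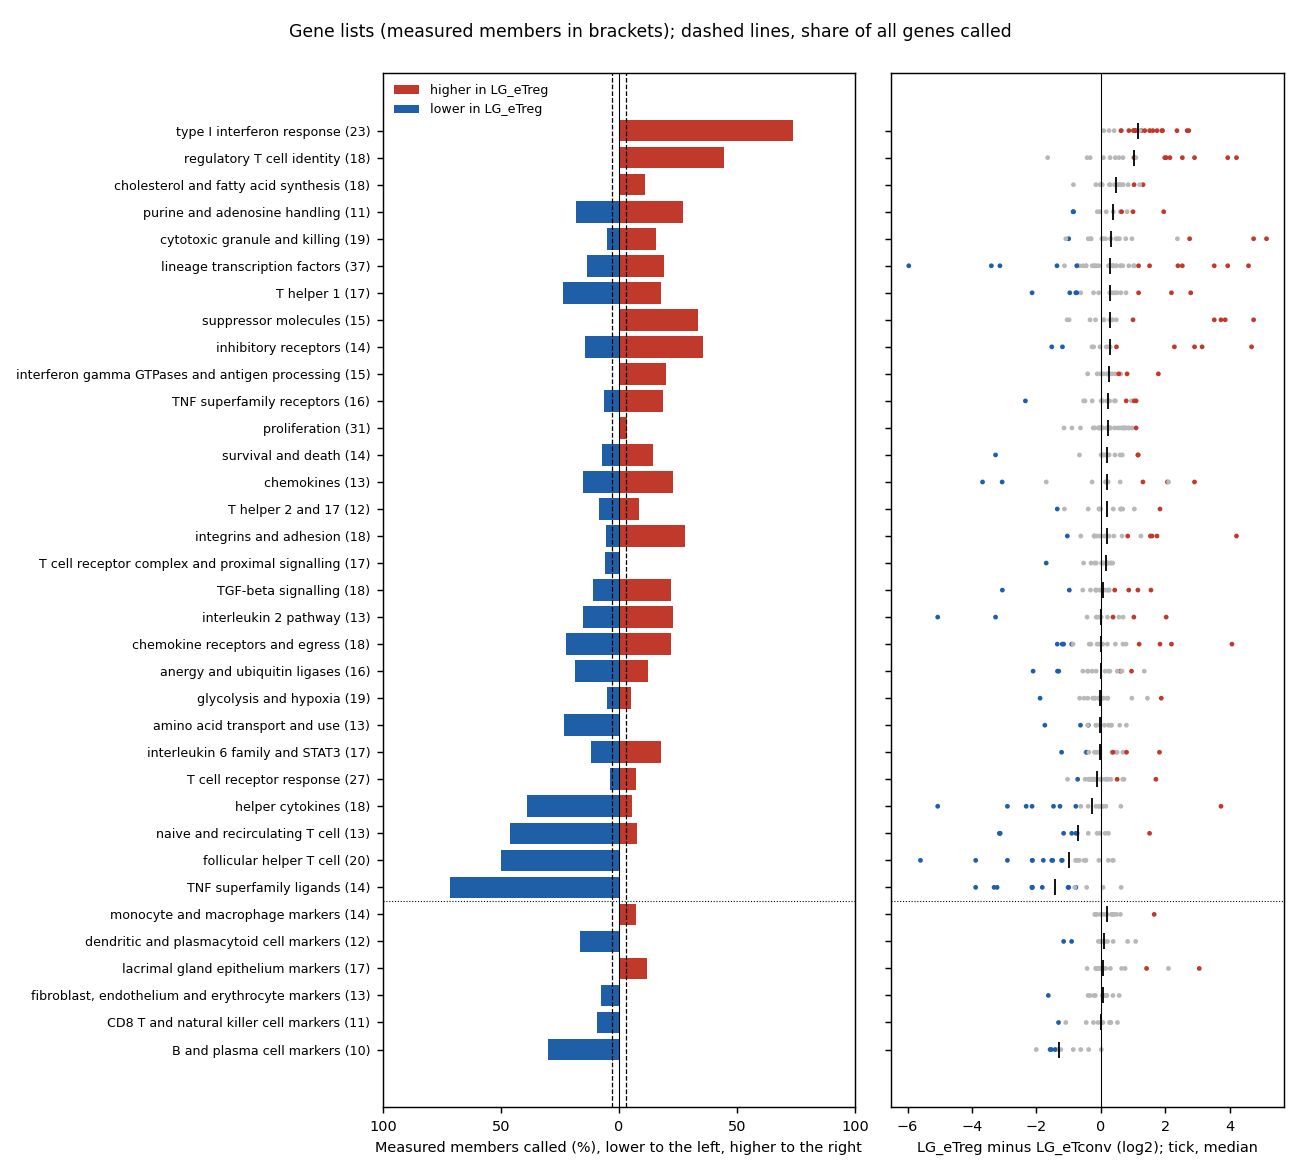
Left, percent of the measured members of each of 35 gene lists called higher (red, to the right) or lower (blue, to the left) in LG_eTreg, with dashed lines at the share of all genes called (2.94 and 2.76%); right, the difference of each member (log2) with the list's median as a tick. The type I interferon list extends furthest to the right (17 of 23) and the TNF superfamily ligands furthest to the left (10 of 14); lists of other cell types stand under the dotted line.

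Type I interferons induce antiviral genes that share a response element in their promoters. Those genes were higher in LG_eTreg: 17 of 23 measured rose, 0 fell and all 23 differences were above 0, with a median of 1.14. The type I interferon list was at 0.25 relative to LG_naive in LG_eTreg and at -0.58 in LG_eTconv. Ifit3, an antiviral effector, read 7.90, 7.93 and 8.43 in LG_eTreg, 5.72, 5.56 and 5.88 in LG_eTconv and 6.33 to 6.64 in LG_naive (difference between effectors 2.37, SE 0.17, adjusted p 8.9e-05). Oas2, an RNA sensor of the 2′-5′ oligoadenylate synthetase family, read 5.72, 5.47 and 5.57 against 3.41, 2.75 and 2.55 (difference 2.68, adjusted p 0.000379). For Oas2 the naive arrays, at 5.54 to 6.18, overlapped with the regulatory ones, and Oasl1 was similar, with 3.51 to 3.999 in LG_eTreg, 1.23, 0.66 and 1.31 in LG_eTconv and 3.93 to 4.20 in LG_naive.

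Further rises covered effectors, sensors and regulators of the interferon response. They included Ifit2 (1.92), the sensor Dhx58 (1.90), Mx1 (1.74), the negative regulator Usp18 (1.61), Mx2 (1.52), Rsad2 (1.37), Stat2 (1.26), Ifit1 (1.13) and Irf7 (1.04). The 6 genes without a call, Zbp1, Oas3, Ifi35, Irf9, Oasl2 and Ifih1, differed by 0.09 to 1.21. Without LG_eTreg 3 and LG_eTconv 1 the calls numbered 11, the lowest count at any setting. Ifit1bl1, which is outside the list, was among the 15 largest rises of all: 8.05, 7.78 and 7.86 in LG_eTreg, 3.82, 3.88 and 3.96 in LG_eTconv and 7.04 to 7.85 in LG_naive. Of 15 measured interferon gamma GTPases and antigen processing genes, 3 rose and 0 fell (median 0.26), led by Gbp3 at 7.24, 7.87 and 7.54 against 5.90, 5.53 and 5.86 (difference 1.79, adjusted p 0.000468). Ifngr1, a chain of the interferon gamma receptor, was 14.1-fold higher in LG_eTreg, at 7.54, 7.76 and 7.74 against 3.98, 4.14 and 3.48 (adjusted p 8.8e-06). LG_naive, at 7.03 to 7.27, stood nearer the regulatory cells for Ifngr1.

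The promoters of these genes were searched on both strands for letters resembling the interferon-stimulated response element: GAAA in 2 copies with any 2 bases between them, which on the other strand reads as TTTC in 2 copies. Windows of 300 bases, from 250 before to 50 after each transcription start, came from RefSeq on GRCm38.p6, which is not the NOD genome. A match was found for 8 of 16 type I interferon genes with a promoter entry (50%) and 7 of 12 of the interferon gamma list (58.3%). Over all promoters it was found for 1079 of 27025 genes (3.99%), and among the genes tested here for 488 of 13605 (3.59%). Of the genes called higher 26 of 407 had a match (6.39%), and of those called lower 16 of 374 (4.28%). These are descriptions of letters, not of bound sites, and the lists hold genes known for this response. The stretches around the matches, which lie before the transcription start, are shown for 5 called genes because they carry the letters in different number and spacing. Capitals mark the matches, each sequence is read 5′ to 3′ on the gene's own strand, and the stretches lie at chr19:34583348-34583441 (plus strand, Ifit3), chr19:34640760-34640838 (plus, Ifit1), chr12:26456538-26456597 (minus, Rsad2), chr10:128270251-128270310 (plus, Stat2) and chr3:142559974-142560039 (plus, Gbp3).
Ifit3: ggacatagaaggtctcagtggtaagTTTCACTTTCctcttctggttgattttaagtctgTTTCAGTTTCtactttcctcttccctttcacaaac
Ifit1: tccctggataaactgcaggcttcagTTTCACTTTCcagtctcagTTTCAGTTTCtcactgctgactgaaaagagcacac
Rsad2: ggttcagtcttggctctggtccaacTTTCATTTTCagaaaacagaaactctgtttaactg
Stat2: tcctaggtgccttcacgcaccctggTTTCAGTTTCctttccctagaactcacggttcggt
Gbp3: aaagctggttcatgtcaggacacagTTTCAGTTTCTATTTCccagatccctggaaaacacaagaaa

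Ifit3 and Ifit1 each carried 2 separate matches, Rsad2 and Stat2 carried 1, and in Gbp3 2 matches overlapped. The last match ended 112 bases before the start in Ifit3, 75 in Ifit1, 110 in Rsad2, 212 in Stat2 and 29 in Gbp3. The differences of these genes, 2.37, 1.13, 1.37, 1.26 and 1.79 in that order, were not ordered by the number of matches.

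Among the 15 largest rises, several genes have no place in the lists above. Nxpe4 read 6.09, 6.12 and 5.75 in LG_eTreg and 0.88, 0.94 and 1.25 in LG_eTconv, with 1 conventional array above background (difference 4.96, adjusted p 1.88e-06). Padi2, which converts arginine residues to citrulline, read 6.70, 7.03 and 7.48 against 2.69, 2.26 and 3.28 (difference 4.33, adjusted p 5.39e-05). For Padi2 the naive arrays, at 6.02 to 6.39, lay just under the regulatory ones, whereas for Nxpe4 they were at background. B4galnt4 read 5.25, 5.68 and 6.26 against 1.53, 1.89 and 1.77 (adjusted p 8.54e-05) and Itih5 by 3.76 (adjusted p 0.00161).

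The 15 largest falls were mostly genes with little or no signal in LG_eTreg. Stfa3, a stefin that inhibits cysteine proteases, read 1.78, 3.11 and 2.93 in LG_eTreg and 9.97, 10.01 and 9.94 in LG_eTconv, a 165-fold difference (adjusted p 5.53e-05). Stefin genes are near-identical copies, so this probe set may bind several of them. The spleen CD4 array read 6.22 for Stfa3 and the naive arrays 1.06 to 2.76. Col24a1, a fibrillar collagen chain, was at background in LG_eTreg (0.50, 0.37 and 0.60) and read 7.14, 7.07 and 6.98 in LG_eTconv, at least 57.4-fold higher. Nts, which encodes the peptide neurotensin, was likewise at background in LG_eTreg and read 6.77, 6.97 and 7.05 in LG_eTconv (at least 52.4-fold), and Rph3a was at least 33.4-fold higher there. Col24a1, Nts and Rph3a were at background on all 3 naive arrays.

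Chdh, a mitochondrial choline dehydrogenase, read 1.38, 3.63 and 2.17 against 8.56, 8.31 and 8.20 (difference -5.96, adjusted p 0.000237), with LG_naive between at 3.92 to 4.80, on a probe set that may also bind related transcripts. Efnb2, the ligand ephrin-B2, fell by 5.20 (adjusted p 0.00376), although its 4 probe sets ranged from -5.20 to 0.01. Elmod1 (-5.38), Pdzrn3 (-5.14), Cd109 (-5.09), Vat1l (-5.08), the calcium channel subunit Cacna1d (-5.08, with the same reserve) and the actin-severing protein Scin (-4.89) completed the group with Il2, Sostdc1 and Twist2. All 30 of the largest rises and falls kept their call at all 19 alternative settings. The mean of all probe sets gave smaller falls for Rph3a (-3.51), Efnb2 (-2.91), Cd109 (-3.33) and Cacna1d (-2.68), and a smaller rise for Ccr2 (2.45).

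Where the other subsets lay was described for each called gene by its group means. Among the 502 genes higher in LG_eTreg, LG_naive was below both effector subsets in 125, between them in 254 and above both in 123. It was nearer LG_eTreg in 49.8% and nearer LG_eTconv in 50.2%. Among the 472 genes lower in LG_eTreg, LG_naive was below both in 209, between in 196 and above both in 67, and nearer LG_eTreg in 335 (71%). The spleen CD4 array, a single array of total CD4 cells, gave 70.1% nearer LG_eTreg for the lower genes and 45.4% for the higher ones. All these positions use the same effector means that chose the genes, so they are descriptions without a test.

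**Figure D5:**
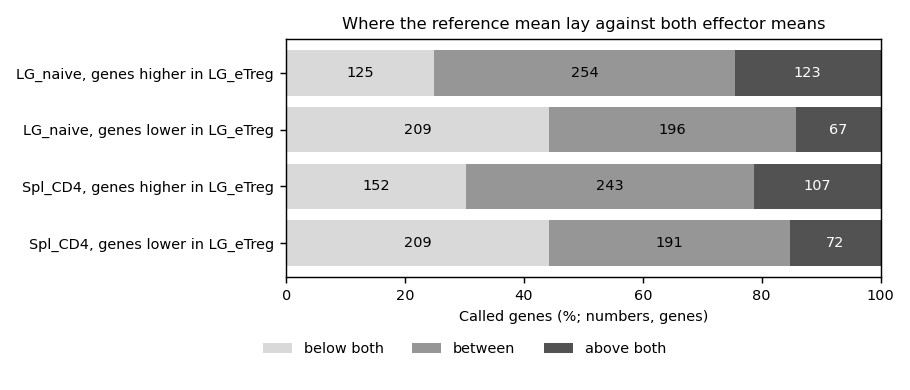
Percent of called genes (x axis; numbers are genes) for which the mean of LG_naive or the Spl_CD4 array lay below both effector means, between them or above both, for genes higher and lower in LG_eTreg (rows). LG_naive lay below both effector subsets in 209 of the 472 lower genes and in 125 of the 502 higher genes.

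Markers of other cells ranged from background to well above it in both subsets and moved unevenly. Their part in the results was not tested, and in sorted populations a change in RNA per cell and a few contaminating cells cannot be told apart. Of 10 measured B and plasma cell markers 0 rose and 3 fell (Cd22, Blnk and Spib), with a median of -1.30. Their summed linear signal was 95.2 to 169 in LG_eTreg, 198 to 292 in LG_eTconv and 430 to 514 in LG_naive, and Pax5 and Ighm were at background on all 6 arrays. Without LG_eTreg 3, 5 of them fell. The call of Blnk was lost without LG_eTconv 1 (adjusted p 0.0562) or LG_eTreg 2 (0.0629) and with values raised to the background limit (-0.49, 0.688), that of Spib without LG_eTreg 2 (0.0514) and that of Cd22 without LG_eTreg 3 and LG_eTconv 1 together (0.0767). Of 11 CD8 T and natural killer cell markers Cd8a fell, at 5.15, 5.13 and 5.23 against 6.83, 6.46 and 6.16 (difference -1.31, adjusted p 0.00858; 0.0667 without LG_eTreg 3 and LG_eTconv 1). The mean of its probe sets gave -0.85 (0.109). Its partner chain Cd8b1 was at 0.62, 0.87 and 1.75 against 1.18, 1.65 and 1.77, near the background limit in both (difference -0.45, adjusted p 0.532; -0.96 and 0.0252 without LG_eTreg 3 and LG_eTconv 1). This list's sum was 66.1 to 77.1 in LG_eTreg and 116 to 159 in LG_eTconv, with Ncr1, Klra1, Klra8 and Klrk1 at background.

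Of 17 lacrimal gland epithelium markers 2 rose. Epcam, an epithelial adhesion molecule, read 5.68, 6.59 and 6.85 in LG_eTreg and 3.21, 3.04 and 3.70 in LG_eTconv (difference 3.06, adjusted p 0.000645), with 5.49 to 5.96 in LG_naive. Krt18 rose by 1.42 (adjusted p 0.0311) and lost its call without LG_eTconv 1, LG_eTconv 2, LG_eTconv 3, LG_eTreg 2, LG_eTreg 3 or LG_naive 3 (adjusted p 0.0534 to 0.11). The list's sum was 227 to 355 in LG_eTreg and 121 to 157 in LG_eTconv, and Krt19, Cldn4 and Prom1 were at background. Of 14 monocyte and macrophage markers Cd14 rose by 1.66 (adjusted p 0.00579), with sums of 154 to 169 and 139 to 175. Csf1r, Itgam and Clec4e were at background. Of 12 dendritic and plasmacytoid cell markers 2 fell, Ccr9 (lost without LG_eTconv 2, adjusted p 0.0574, or LG_eTconv 3, 0.0508, and with the mean of its probe sets, -0.45 and 0.389) and Tcf4 (lost without LG_eTconv 1, LG_eTconv 2, LG_eTconv 3, LG_eTreg 1 or LG_eTreg 3, adjusted p 0.0632 to 0.0951). The sums of this list were 447 to 626 and 461 to 559, with Flt3, Xcr1 and Cd209a at background. The sums of 13 fibroblast, endothelium and erythrocyte markers, of which Pecam1 fell by 1.63 (lost without any LG_eTconv array or LG_eTreg 2, adjusted p 0.0595 to 0.0998), were 34.5 to 52.7 and 44.7 to 74.4, with Col1a2, Pdgfra, Cdh5 and Alas2 at background. The LG_naive sums were above those of both effector subsets for each of these marker lists. They were 418 to 918 for epithelium, 475 to 707 for monocytes and macrophages and 1594 to 2173 for dendritic cells. For CD8 and natural killer cells they were 169 to 173, and for fibroblasts, endothelium and erythrocytes 88.9 to 111.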

How the data were processed

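RNA of FACS-sorted T cells was amplified and hybridised to perfect-match probe set arrays. Per the submitters' processing notes, Partek and RMA were used. The deposited values behave as log2 signals made by the authors in this way, a base taken from what RMA usually gives, and versions are not given in the sources used here. RMA normalizes arrays together, so a global difference in RNA between subsets would not be seen. How few the arrays are limits the precision.

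Of 45141 probe sets 104 controls were left out. Another 28898 had 1 gene symbol, 551 had several and 15588 were unnamed here. Each of 17097 genes was represented by its brightest probe set on average across the 9 gland arrays, and 7180 genes had more than 1. No filter on dim genes was used. Group means over the 9 gland arrays were fitted with limma 3.58.1 (lmFit and eBayes, R 4.3.3; 6 residual degrees of freedom), with Benjamini-Hochberg adjustment and a threshold of 0.05. The code was tested on simulated data. "At least" folds set a group at background to its arrays' background limits. Named genes were the 15 largest rises and 15 largest falls without overlap (no gate genes, no clone names), up to 4 called genes per list and direction, and fixed markers; other list members are given with their list. The comparison's genes and the 35 lists were chosen with earlier results of these data known. Genes of the lists with no probe set named here are not analysed here. Alternatives changed the arrays fitted, a replicate block, the probe set rule, the dim filter, a floor at background, normalization, the variance prior and each array in turn. Promoter sequences are credited to RefSeq (GRCm38.p6).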

Additional observations from a re-analysis of the deposited data

How the results depend on the processing

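The number of called genes, 974, was 683 to 969 when each gland array was left out in turn, with 330 to 506 higher, 344 to 463 lower and 540 to 652 called at least 2-fold apart. Without LG_eTconv 1 and LG_eTreg 3 together, a setting chosen after seeing the data, 629 genes were called, 318 higher and 311 lower. It was 813 with only the 6 effector arrays, 1023 with the mean of a gene's probe sets, 1249 of 28898 with all probe sets, 1030 of 10607 without dim genes, 746 with values raised to the background limit, 1003 after quantile normalization, 976 after centring each array on its median and 1030 with a trended robust variance prior. The share of higher genes among the calls stayed between 47.4 and 54.4% at all 19 settings. Of the 145 named genes 135 were called. Of these, 83 kept their call at every setting, 52 lost it at 1 or more and 0 changed direction. Among those without a call, Cd8b1 reversed to 0.0091 with values raised to the background limit, and Pdcd1 ranged from -0.12 (without LG_eTreg 3) to 0.56 when 1 array was left out, with -0.0024 without LG_eTconv 1, and reversed to -0.35 without both arrays; the cause was not tested. Raising values to the background limit also ended calls among the genes named in the text. For Pim1, Gzma, Zeb2, Blnk and Ccr9 the difference itself shrank, to 0, 1.92, -0.33, -0.49 and -0.72. Cish, Cxcr5, Il6ra, Fasl, Itgb1, Nt5e and Tnfsf13b lost the call with an unchanged difference. The same held for Tnfsf14, Bhlhe40, Sqle, Tk1, Krt18, Tcf4 and Pecam1. For these genes only the adjusted p moved, so the lost call does not show a signal at background.

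With the replicate number as a block, 906 genes were called. Same-numbered LG_eTreg and LG_eTconv arrays deviated from their group means with correlations of 0.283, 0.0788 and 0.171, and 3 of 3 LG_eTreg arrays correlated best with the LG_eTconv array of their own number. Since the labels do not say what the numbers mark, the arrays were treated as unpaired. With same-numbered LG_naive arrays the correlations were -0.0969, 0.137 and -0.0424 for LG_eTreg. For LG_eTconv they were -0.0527, 0.0739 and 0.00247. The best matches come from the data, not from the design, and whether the arrays are paired was not tested. The block ended the calls of Cish, Pim1, Gzma, Il6ra, Jak2, Pdcd1lg2, Pecam1, Sqle, Zeb2 and Bhlhe40 among the genes named in the text. Low signal limits the calls: 5383 genes were at background on all 6 arrays, and of 495 called genes with more than 1 probe set 159 had another probe set called the same way and 0 the other way.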

Other observations

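Beyond the lists, and chosen after the values were seen, the genes following the 15 largest falls held transcripts of imprinted loci. Meg3, a noncoding RNA expressed from the maternal chromosome, was at background in LG_eTreg and LG_naive and read 4.27, 4.64 and 4.68 in LG_eTconv, at least 9.91-fold higher there. Its 10 probe sets did not move alike, with differences from -3.87 to 0.04. Rian, a noncoding RNA of the same locus, read 2.47, 1.30 and 1.90 in LG_eTreg and 6.16, 6.45 and 6.58 in LG_eTconv (difference -4.51, adjusted p 3.5e-05 in limma). Grb10, an imprinted adaptor of growth factor receptors, fell by 3.92 (adjusted p 0.000168), with 1 of its 3 probe sets called and differences from -3.92 to 0.10. The secreted signal Wnt3, on a probe set that may also bind related transcripts, was at background in LG_eTreg and at least 15.5-fold higher in LG_eTconv, and the peptide endothelin 3 (Edn3) read 1.41, 1.79 and 1.84 against 6.01, 5.75 and 6.37, with -0.51 for its other probe set. The second largest fall of all, left out of the named genes for its clone name, was 1810009J06Rik, at background in LG_eTreg and LG_naive and at 7.73, 7.66 and 7.86 in LG_eTconv.

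Among further rises, the matrix protease Mmp9 read 3.90, 3.69 and 4.24 in LG_eTreg and was at background in LG_eTconv and LG_naive, at least 6.07-fold higher. The drug efflux pump Abcb1a rose by 3.42 (adjusted p 0.00119), the galectin Lgals3 by 2.75 (adjusted p 0.00327) and the cell cycle inhibitor Cdkn1a by 2.72, at 8.03, 8.16 and 7.80 against 5.46, 5.28 and 5.09 (adjusted p 1.28e-05). The related cysteine protease inhibitors Ctla2a and Ctla2b, whose transcripts are similar, rose by 2.78 and 2.52 (adjusted p 0.00378 and 0.0157).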
